A study of Mus musculus with 12 samples.

Results

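Matricellular glycoproteins are secreted proteins that sit in the extracellular matrix and act mainly on how cells attach, migrate and respond to growth factors, more than as load-bearing fibres. The 10 genes described here are Sparc, Fn1, Postn, Cilp, Tnc, Thbs1, Thbs2, Thbs4, Comp and Spp1, taken by symbol from a table of 39210 genes. All 10 passed the filter on low counts, as did 13960 genes in all. Spp1 passed it through male hypoxia, the group where it was high. Ventricular tissue of C57BL/6 mice was sequenced as mRNA in 12 libraries, 3 in each of 4 groups: male hypoxia, male normoxia, female hypoxia and female normoxia. The hypoxic mice spent 14 days in a chamber whose oxygen was lowered by 1% daily down to 7%, then 2 weeks at 7%, and the normoxic mice spent 4 weeks in room air at 20.9% oxygen. No transgene or mutation is named for any group, and age is not given in the labels. The labels name ventricular samples without separating the right ventricle from the left, and do not state whether each library is from an animal of its own. The p-values therefore measure the spread between these libraries, which may be technical.

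In the uninjured adult heart most of these proteins are scarce, and their genes are known to be switched on in cardiac fibroblasts when the ventricle is loaded or injured. Sparc and periostin, the product of Postn, bind fibrillar collagen and take part in its assembly. Fibronectin, the product of Fn1, forms a scaffold on which other matrix proteins are deposited, and the thrombospondins and osteopontin, the product of Spp1, are ligands of integrins and other surface receptors. Several members act on latent or active TGF-beta, which in turn raises the expression of many matrix genes.

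The libraries held between 14915830 and 19397851 estimated counts each, of which the 10 genes took between 0.0393% and 0.216%. Summed CPM (counts scaled to a common library size with TMM factors) of 6 cardiomyocyte markers was 29174 to 39671 in male hypoxia, against 38427 to 42831 in male normoxia, and 28959 to 45923 in female hypoxia, against 39270 to 45055 in female normoxia, with no marker of that list at 0. The ratio of hypoxia to normoxia means was 0.842 in males and 0.830 in females, and library 1 had the highest sum in both hypoxia groups. Some libraries stood apart within their groups. In male hypoxia libraries 2 and 3 the 8 tendon, valve and cartilage markers summed to 89.8 and 83.1 CPM, and in each of the 10 remaining libraries to between 13.1 and 27.1 CPM. In the same libraries 2 and 3 the 5 adipocyte markers summed to 20.9 and 15.8 CPM, with Plin1 and Lep at 0 in both. In each of the 10 remaining libraries the adipocyte sum was between 0.0592 and 1.42 CPM. Female normoxia library 3 had a summed CPM of 8 immediate early genes, a list chosen after the values were seen, of 884, against 104 to 243 in the other 11 libraries. Female hypoxia library 1 was the lowest of its group for 9 of the 10 genes and male hypoxia library 1 the lowest for 7, whereas female normoxia library 3 was the lowest of its group for 7 and the highest for Thbs1 and Thbs2.

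Sequence upstream of the transcription start was at hand for 7 of the 10 genes, from RefSeq on build GRCm38.p6, which is not the build named for the deposited table. Thus it is used here for sequence alone. Windows for Fn1, Thbs1 and Comp were not used here. In each window of 250 bases before the start, 4 motifs were searched on both strands: the hypoxia response core (ACGTG or GCGTG), the AP-1 site TGANTCA, the TEAD site GGAATG and the TATA box TATAA, the last chosen after the sequences were read. 4 windows are shown: Postn and Cilp, whose TATAA lies close to the start, Thbs4, the only member window of the 7 with a hypoxia response core, and Thbs2, the member that did not rise. Capitals mark the motif matches, also where they read as the reverse complement.
Postn, chr3:54360857-54361106, plus strand: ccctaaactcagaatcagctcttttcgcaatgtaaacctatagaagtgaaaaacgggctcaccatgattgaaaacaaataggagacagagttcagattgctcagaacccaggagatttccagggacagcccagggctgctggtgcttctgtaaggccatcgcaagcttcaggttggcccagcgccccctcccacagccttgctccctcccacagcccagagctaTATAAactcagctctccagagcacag
Cilp, chr9:65264930-65265179, plus strand: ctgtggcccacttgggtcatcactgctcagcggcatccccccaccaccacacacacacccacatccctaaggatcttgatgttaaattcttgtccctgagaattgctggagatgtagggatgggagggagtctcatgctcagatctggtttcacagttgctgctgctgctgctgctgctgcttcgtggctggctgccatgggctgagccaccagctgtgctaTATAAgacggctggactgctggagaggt
Thbs4, chr13:92794819-92795068, minus strand: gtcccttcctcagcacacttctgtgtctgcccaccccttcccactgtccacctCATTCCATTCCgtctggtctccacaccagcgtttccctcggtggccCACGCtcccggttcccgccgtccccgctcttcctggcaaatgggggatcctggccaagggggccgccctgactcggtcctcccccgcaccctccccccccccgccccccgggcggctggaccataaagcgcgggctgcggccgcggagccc
Thbs2, chr17:14694263-14694512, minus strand: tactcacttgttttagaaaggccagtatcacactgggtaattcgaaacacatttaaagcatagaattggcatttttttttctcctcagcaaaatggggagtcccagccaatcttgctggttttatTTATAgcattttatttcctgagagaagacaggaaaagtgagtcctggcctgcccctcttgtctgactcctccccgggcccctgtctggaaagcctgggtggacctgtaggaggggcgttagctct
The TATAA of Postn begins 26 bases before the annotated start and that of Cilp 28 bases before it. A TATAA or its reverse complement was present in 5 of the 7 member windows (Postn, Spp1, Tnc, Thbs2 and Cilp), against 22.8% of 32851 windows of the same length. The match lay farther upstream in Spp1 (211 bases before the start), Tnc (126 bases) and Thbs2 (125 bases, as the reverse complement). Since this motif was chosen after these sequences were read, its count beside all windows is no test. The Thbs4 window held 1 hypoxia response core, as CACGC, and 2 TEAD matches that overlap by a base, as CATTCC. A hypoxia response core was present in 1 of the 7 member windows and in 38.6% of all windows, a TEAD match in 1 of 7 and 12.6%, and an AP-1 match in 0 of 7 and 6.75%. These matches describe letters in the window and no binding was measured.

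Hypoxia was first set against normoxia with the effects in males and in females averaged. Of the 10 genes 9 rose in hypoxia and none fell by edgeR's quasi-likelihood test with Benjamini-Hochberg adjustment over all genes (adjusted p under 0.05). Over all genes tested 15% were called higher, 12.9% lower and 27.9% in either direction. The median log2 fold change of the 10 genes was 2.12, against -0.01 over all genes tested. Thbs2 was the gene that did not pass. In 6 of the 10 genes every hypoxia library lay above every normoxia library of the same sex in both sexes, which held for 7.79% of all genes. Without male hypoxia libraries 2 and 3 the count of members that rose was 8, with Comp no longer among them.

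**Figure D1:**
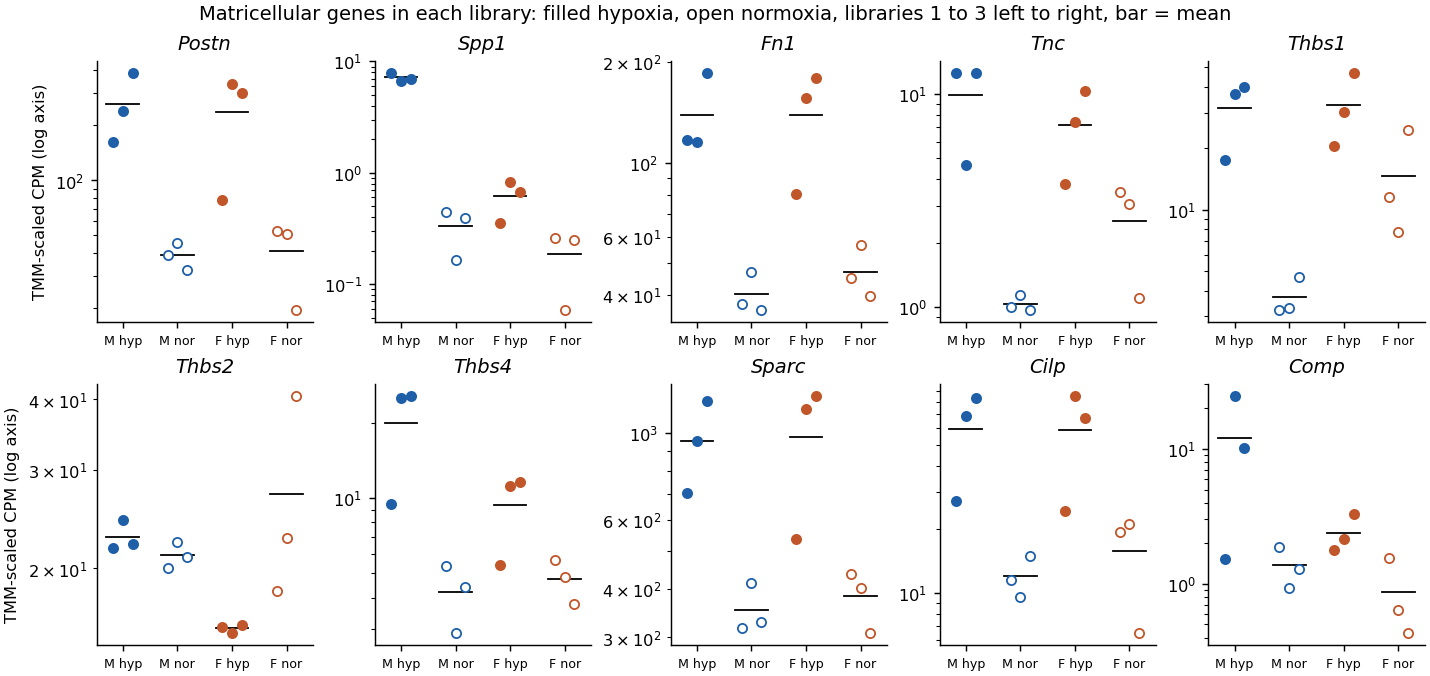
TMM-scaled CPM of the 10 matricellular genes in each library (vertical log axes), with male (M) libraries in blue and female (F) libraries in orange, hypoxia (hyp) filled and left of normoxia (nor), libraries 1 to 3 from left to right, and a bar at each group mean. Spp1 lies between 6.72 and 7.88 CPM in male hypoxia and below 1 CPM in the other 9 libraries, while Thbs2 shows no rise in either sex.

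Sparc (ENSMUSG00000018593), a collagen-binding glycoprotein also called osteonectin, was the most abundant member. It had 704, 954 and 1210 CPM in male hypoxia libraries 1 to 3, against 317, 414 and 330 CPM in male normoxia. Female libraries had 536, 1152 and 1247 CPM in hypoxia, against 437, 402 and 308 CPM in normoxia. Every hypoxia library was above every normoxia library of its sex, although female hypoxia library 1 stood nearer to the normoxia libraries than to the other 2. The averaged rise was 2.63-fold (log2 1.40 ± 0.21, SE, adjusted p = 0.00122 by edgeR's quasi-likelihood test).

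Fn1 (ENSMUSG00000026193), the fibronectin gene, also rose. Its levels were 117, 115 and 186 CPM in male hypoxia, against 37.7, 47.1 and 36.1 CPM in male normoxia. Female hypoxia libraries had 80.7, 156 and 180 CPM, against 45.0, 56.4 and 39.7 CPM in female normoxia. The groups did not overlap in either sex, and the averaged rise was 3.19-fold (log2 1.67 ± 0.20, adjusted p = 0.000473). The pattern of Fn1 over the 12 libraries was the nearest to that of Sparc among all pairs of members, with a root mean square difference of 0.20 in centred log2 CPM.

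Postn (ENSMUSG00000027750), periostin, is made by activated fibroblasts and valve cells. It had 162, 240 and 388 CPM in male hypoxia, against 39.2, 45.4 and 32.5 CPM in male normoxia. Female hypoxia libraries had 78.6, 335 and 301 CPM, against 52.6, 51.1 and 19.5 CPM in female normoxia. No hypoxia library overlapped with normoxia, but within female hypoxia the highest library was 4.27 times the lowest. The averaged rise was 6.26-fold (log2 2.65 ± 0.38, adjusted p = 0.000993).

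Cilp (ENSMUSG00000042254) encodes cartilage intermediate layer protein, which binds TGF-beta and is made by cardiac fibroblasts. Its levels were 27.3, 68.7 and 83.5 CPM in male hypoxia, against 11.6, 9.63 and 15 CPM in male normoxia. Female hypoxia libraries had 24.4, 85.3 and 66.9 CPM, against 19.5, 21.2 and 6.47 CPM in female normoxia. Library 1 was the lowest hypoxia library in both sexes, and neither sex showed overlap with normoxia. Averaged over sexes it rose 4.32-fold (log2 2.11 ± 0.38, adjusted p = 0.00300).

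Tnc (ENSMUSG00000028364) encodes tenascin-C, an anti-adhesive glycoprotein that is nearly absent from the resting adult heart. It had 12.6, 4.67 and 12.6 CPM in male hypoxia, against 1.01, 1.14 and 0.971 CPM in male normoxia. Among females the values were 3.79, 7.40 and 10.4 CPM in hypoxia, against 3.48, 3.04 and 1.11 CPM in normoxia. In males the groups were far apart, whereas in females the lowest hypoxia library was only just above the highest normoxia library. Averaged over sexes it rose 5.17-fold (log2 2.37 ± 0.36, adjusted p = 0.00127).

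The 4 thrombospondin genes, Comp being known also as thrombospondin-5, did not move alike. Thbs1 (ENSMUSG00000040152), an activator of latent TGF-beta that platelets also carry, had 17.5, 37.2 and 40.3 CPM in male hypoxia, against 3.21, 3.26 and 4.66 CPM in male normoxia. Among females the values were 20.5, 30.3 and 47.0 CPM in hypoxia, against 11.5, 7.78 and 24.7 CPM in normoxia. Females overlapped at a single point, since female normoxia library 3, the library high in immediate early genes, was above female hypoxia library 1. The averaged rise was 4.36-fold (log2 2.13 ± 0.33, adjusted p = 0.00136). Summed CPM of 5 platelet and megakaryocyte markers ran from 29.9 to 40.5 in male hypoxia, against 10.8 to 13 in male normoxia, and from 17.7 to 28.1 in female hypoxia, against 10.3 to 13.9 in female normoxia. Of these 5 markers 3 were tested. In the averaged comparison 2 of them, Pf4 and Ppbp, rose, against 15% of all genes. Gp1bb was at 0 in all 3 female hypoxia libraries. Their part in the Thbs1 result was not tested.

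Thbs4 (ENSMUSG00000021702), a thrombospondin of tendon, muscle and pressure-loaded heart, had 9.47, 25.1 and 25.7 CPM in male hypoxia, against 5.35, 2.88 and 4.4 CPM in male normoxia. In females it had 5.39, 11.2 and 11.7 CPM in hypoxia, against 5.67, 4.85 and 3.76 CPM in normoxia. Males did not overlap, and in females hypoxia library 1 fell within the normoxia range. Averaged over sexes it rose 3.08-fold (log2 1.62 ± 0.29, adjusted p = 0.00261). The higher male hypoxia values were in libraries 2 and 3, the ones high in tendon, valve and cartilage markers. Without these libraries the male log2 fold change of Thbs4 was 1.17, against 2.26 with them. The part of those markers in the Thbs4 result was not tested.

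Comp (ENSMUSG00000031849), cartilage oligomeric matrix protein, binds collagen in cartilage and tendon. It had 1.52, 24.6 and 10.2 CPM in male hypoxia, against 1.89, 0.925 and 1.3 CPM in male normoxia. In females it had 1.78, 2.14 and 3.28 CPM in hypoxia, against 1.55, 0.643 and 0.432 CPM in normoxia. Male hypoxia libraries 2 and 3 were high while male hypoxia library 1 lay inside the normoxia range, and the highest male hypoxia library was 16.2 times the lowest. The averaged rise was 4.95-fold (log2 2.31 ± 0.56, adjusted p = 0.0116). Without male hypoxia libraries 2 and 3 the averaged log2 fold change was 0.81 (adjusted p = 0.249), a fit that takes the spread of the lone male hypoxia library from the other groups. Those same libraries were the ones high in tendon, valve and cartilage markers, with 89.8 and 83.1 summed CPM. Of these 8 markers 5 were tested. In the averaged comparison 3 of them, Sox9, Acan and Prg4, rose, against 15% of all genes. Acan was at 0 in every normoxia library and passed the count filter through hypoxia libraries alone. Its rise was thus fixed by the filter and is no result of its own. Tnmd was at 0 in every library of the 3 groups other than male hypoxia. Among 6 atrial markers, summed CPM ran from 494 to 1714 in male hypoxia, against 71.7 to 132 in male normoxia. In males all 4 that were tested rose, against 8.47% of all genes. Of these 4, Myl7 was near 0 outside male hypoxia and may have passed the count filter through that group alone. Its rise is thus not independent of the filter, and the count of 4 is no test. Summed atrial marker CPM was 189 to 1060 in female hypoxia, against 113 to 253 in female normoxia, and none of the 4 passed in females. Nppa was the largest part of these sums. Its means were 932 CPM in male hypoxia, 108 in male normoxia, 564 in female hypoxia and 185 in female normoxia. In the same order Myl7 had 37.4, 0.167, 0.487 and 0.323 CPM, and Myl4 had 55.1, 1.72, 3.30 and 2.07 CPM. Bmp10 was at 0 in male hypoxia libraries 1 and 3. The part of either list in the Comp result was not tested.

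Thbs2 (ENSMUSG00000023885), an inhibitor of vessel growth that is close in sequence to Thbs1, had 21.8, 24.4 and 22.1 CPM in male hypoxia, against 20.1, 22.3 and 20.9 CPM in male normoxia. Female libraries had 15.7, 15.3 and 15.9 CPM in hypoxia, against 18.2, 22.7 and 40.6 CPM in normoxia. Males overlapped, and in females all 3 hypoxia libraries lay below all 3 normoxia libraries, which held for 12.7% of all genes, and the highest of them was the library rich in immediate early genes. The averaged log2 fold change was -0.34 ± 0.16 (adjusted p = 0.129), with a 95% interval of -0.69 to 0.01. Leaving out female normoxia library 1 gave -0.45 and an adjusted p of 0.0327, and leaving out female normoxia library 3 gave -0.14.

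Spp1 (ENSMUSG00000029304), osteopontin, is a phosphorylated ligand of integrins and CD44 that macrophages and fibroblasts make in injured tissue. It had 7.88, 6.72 and 6.94 CPM in male hypoxia, against 0.440, 0.163 and 0.389 CPM in male normoxia. In females it had 0.355, 0.822 and 0.677 CPM in hypoxia, against 0.258, 0.0585 and 0.247 CPM in normoxia. The male hypoxia libraries stood apart from all others, and the female hypoxia libraries lay just above the female normoxia libraries. These values rest on 119, 141 and 136 reads in male hypoxia and 7, 3 and 6 in male normoxia, and on 6, 15 and 13 reads in female hypoxia and 4, 1 and 4 in female normoxia. The averaged rise, 8.38-fold, was the largest of the 10 (log2 3.07 ± 0.34, adjusted p = 0.000342). Spp1 passed the count filter through its male hypoxia libraries, so its rise is not independent of the filter.

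The comparison was then made within each sex. In males 9 of the 10 genes rose, against 8.47% of all genes called higher, with a median log2 fold change of 2.54, against 0.01 over all genes. Spp1 rose 21.6-fold (log2 4.43 ± 0.45, adjusted p = 0.000688), Tnc 9.47-fold (3.24 ± 0.53, adjusted p = 0.00438), Comp 8.89-fold (3.15 ± 0.79, adjusted p = 0.0223) and Thbs1 8.57-fold (3.10 ± 0.49, adjusted p = 0.00390). Sparc had the smallest rise that passed, 2.71-fold (1.44 ± 0.30, adjusted p = 0.0109), and Thbs2 did not pass (0.11 ± 0.22, adjusted p = 0.779). Male hypoxia and normoxia did not overlap for 8 genes, all but Thbs2 and Comp, which held in the same direction for 21.5% of all genes. Leaving out 1 male library at a time gave 7 genes in 5 of the 6 fits and 9 without male hypoxia library 1. In those 5 fits Cilp and Comp no longer passed, with log2 fold changes of 2.00 to 2.50 (adjusted p = 0.0501 to 0.0688) for Cilp and 2.11 to 3.45 (adjusted p = 0.0538 to 0.0948) for Comp. The lowest Comp value was the one without male hypoxia library 2, and limma voom gave Comp 2.65 (adjusted p = 0.133). Once male hypoxia libraries 2 and 3 were both removed, only Spp1 and Tnc passed, where 66 of all genes did.

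In females 3 of the 10 genes rose, against 3.97% of all genes called higher: Postn 5.80-fold (log2 2.54 ± 0.53, adjusted p = 0.0252), Fn1 2.95-fold (1.56 ± 0.28, adjusted p = 0.0148) and Sparc 2.56-fold (1.36 ± 0.30, adjusted p = 0.0279). The median log2 fold change of the 10 was 1.48, against -0.02 over all genes. Cilp (1.90, adjusted p = 0.0591), Spp1 (1.71, adjusted p = 0.0683), Tnc (1.5, adjusted p = 0.0872), Comp (1.46, adjusted p = 0.292), Thbs1 (1.15, adjusted p = 0.131) and Thbs4 (0.98, adjusted p = 0.157) had positive values that did not pass. Without female normoxia library 3, the library rich in immediate early genes, Thbs1 had 1.76 and passed (adjusted p = 0.0364). In that fit Sparc no longer passed (1.22, adjusted p = 0.0537), and the count of members that rose stayed at 3. Thbs2 had a log2 fold change of -0.80 (adjusted p = 0.0607) and was called lower by DESeq2 (-0.79, adjusted p = 0.0162), with upper quartile factors (-0.79, adjusted p = 0.0480) and without female normoxia library 1 (-1.01, adjusted p = 0.0374). Female hypoxia and normoxia did not overlap, with hypoxia higher, for 7 genes, which held for 13.2% of all genes. Leaving out female hypoxia library 1 raised the count of members to 6, and leaving out female hypoxia library 2, female hypoxia library 3 or female normoxia library 1 brought it to 0. Without female normoxia library 2 it was 1.

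**Figure D2:**
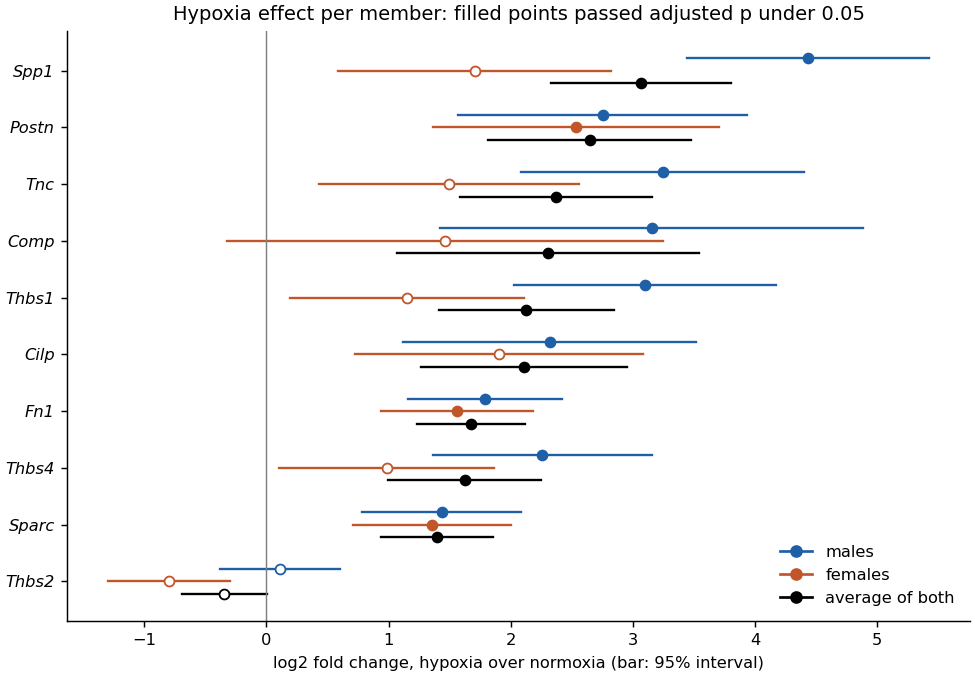
Log2 fold change of hypoxia over normoxia for each gene (horizontal axis) in males (blue), in females (orange) and averaged over both (black), with 95% intervals as bars and filled points where the adjusted p was under 0.05. All 10 male estimates lie to the right of the female ones, by 2.72 for Spp1 and by 0.08 for Sparc, and Thbs2 lies at or below 0.11.

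Whether the effect differed between the sexes was tested as the female effect minus the male effect. None of the 10 genes passed by edgeR, by DESeq2 or by limma voom, and over all genes edgeR called 0.00716%. All 10 differences were negative, with a median of -1.09, and 5 had an unadjusted p under 0.05, against 6.79% of all genes. Spp1 had the largest difference, -2.72 ± 0.71 on the log2 scale (unadjusted p = 0.00273, adjusted p = 0.545, 95% interval -4.29 to -1.16). Next were Thbs1 at -1.95 (-3.35 to -0.54), Tnc at -1.75 (-3.29 to -0.20), Thbs4 at -1.28 (-2.51 to -0.04) and Thbs2 at -0.90 (-1.60 to -0.21). The 95% intervals of the other 5 genes included 0: Sparc -0.98 to 0.82, Fn1 -1.09 to 0.64, Postn -1.79 to 1.36, Cilp -2.05 to 1.22 and Comp -4.14 to 0.76.

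Females were also set against males at each oxygen level. In hypoxia 1 member passed, Spp1, which was lower in females (log2 -3.52 ± 0.42, adjusted p = 0.00605, 95% interval -4.43 to -2.60), against 0.115% of all genes called lower. All 3 female hypoxia libraries were below 1 CPM and all 3 male hypoxia libraries above 6 CPM. Since Spp1 passed the count filter through male hypoxia, this call is not independent of the filter. The call was lost with the deposited transcript lengths as offsets (-4.15, adjusted p = 0.0556) and without male hypoxia libraries 2 and 3 (-3.65, adjusted p = 0.144), while the difference itself was no smaller. Summed CPM of 7 macrophage markers was 240 to 357 in female hypoxia, against 402 to 518 in male hypoxia, with none of the 7 at 0 in any library. Lyz2 was the largest part of these sums, with means of 193 CPM in female hypoxia and 305 CPM in male hypoxia. Cd68, Mrc1, Cd163 and Fcgr1 also had lower means in female hypoxia. Csf1r (43.6 and 42.5 CPM) and Adgre1 (13.1 and 12.3 CPM) did not. Among the 7 macrophage markers 3 rose with hypoxia in males (Cd68, Mrc1 and Lyz2), against 8.47% of all genes, and 0 in females, against 3.97%. None of the 7 passed the test of the difference between the sexes, with an adjusted p of 0.777 for Cd68, 0.730 for Mrc1 and 0.665 for Lyz2. Of 6 markers of lipid-associated macrophages, a state in which Spp1 is known to be expressed, 5 were tested. Of these, 4 rose with hypoxia in males (Lgals3, Trem2, Gpnmb and Cd9), against 8.47% of all genes. In females 2 rose (Lgals3 and Trem2), against 3.97%. Summed CPM of the 6 markers was 1101 to 1355 in female hypoxia, against 1333 to 1527 in male hypoxia, and Arg1 was at 0 in 5 of the 12 libraries. Ctsd was by far the largest part of these sums, with means of 1144 CPM in female hypoxia and 1363 CPM in male hypoxia. The ranges thus describe mainly Ctsd. In the same order Lgals3 had means of 10.2 and 21.98 CPM, and Trem2 of 4.45 and 8.61 CPM. Gpnmb had 1.29 and 3.94 CPM, and Cd9 had 43.8 and 56.8 CPM. The median log2 difference of females minus males in hypoxia was -0.95, with Lgals3 at -1.10 (adjusted p = 0.0971), and none of the 5 passed. Summed CPM of 8 fibroblast markers was 825 to 1470 in female hypoxia, against 1255 to 1765 in male hypoxia. The part of these cell types in the Spp1 difference was not tested, and in bulk tissue more cells of a type and more RNA per cell cannot be told apart. Comp (-2.34), Thbs4 (-1.09) and Thbs2 (-0.54) had an unadjusted p under 0.05 in hypoxia and did not pass.

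In normoxia none of the 10 genes differed between females and males by edgeR, which called 0.0716% of all genes. Thbs1 had the lowest p among them: 11.5, 7.78 and 24.7 CPM in female normoxia, against 3.21, 3.26 and 4.66 CPM in male normoxia, a log2 difference of 1.99 ± 0.48 (unadjusted p = 0.00166, adjusted p = 0.564). DESeq2 called this gene (1.99, adjusted p = 0.00256), and limma voom did not (1.83). The highest Thbs1 value was in female normoxia library 3, the library high in immediate early genes. Without that library the log2 difference was 1.38 by edgeR. Tnc was the other member with an unadjusted p under 0.05 (1.28 ± 0.53, adjusted p = 0.676).

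Levels of different genes were compared in the deposited TPM, which are scaled by transcript length. The 10 genes together summed to 522 ± 170 TPM in male hypoxia, against 119 ± 22.7 TPM in male normoxia, and to 471 ± 224 TPM in female hypoxia, against 143 ± 28 TPM in female normoxia (SD, n = 3). Sparc led in every group, with 358 ± 111 TPM in male hypoxia, against 98.9 ± 18.3 in male normoxia, and 351 ± 157 TPM in female hypoxia, against 116 ± 22.2 in female normoxia. Its share of the summed TPM was lower in hypoxia, at 67.6% to 70.4% in male hypoxia, against 82.5% to 83.3% in male normoxia, and 72.0% to 80.7% in female hypoxia, against 80.6% to 81.6% in female normoxia.

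Postn and Fn1 followed Sparc in every group, in that order. In male hypoxia Sparc, Postn and Fn1 were each apart from the next gene in the order. Their ranges were 232 to 441 TPM, 48.8 to 127 TPM and 27.8 to 44.5 TPM, and Cilp followed at 4.45 to 14.9 TPM. Below Fn1 the neighbours in male hypoxia overlapped down to Thbs2 (Cilp, Spp1, Thbs4, Comp, Thbs1 and Thbs2 in this order), and Tnc was last at 0.573 to 1.31 TPM. In male normoxia Postn and Fn1 overlapped, Thbs2 came after Fn1 at 1.85 to 2.21 TPM, and Spp1 and Tnc shared the lowest places at 0.0788 to 0.198 and 0.0765 to 0.0973 TPM. Spp1 thus took the fifth place in male hypoxia, the ninth in male normoxia, the tenth in female hypoxia and the eighth in female normoxia. The last of these is not firm, since by CPM per kilobase of mean effective length Spp1 was the last of the 10 in female normoxia, where it had an estimated count of 1 to 4 a library. In female hypoxia all neighbours overlapped apart from Sparc with Postn and Thbs2 with Comp. In female normoxia the breaks lay between Sparc and Postn, between Fn1 and Thbs2 and between Thbs4 and Spp1.

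**Figure D3:**
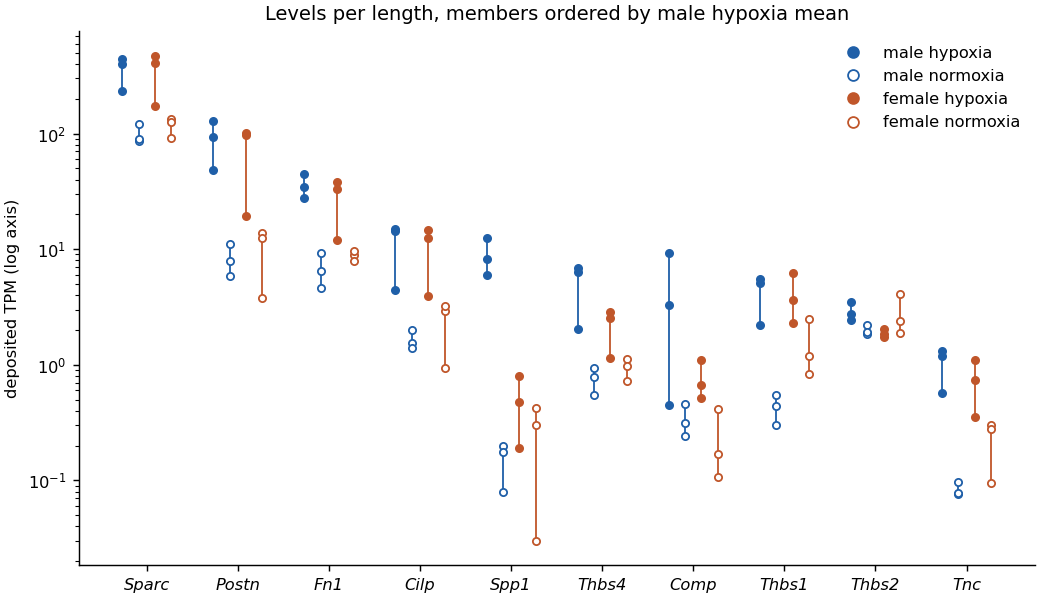
Deposited TPM of each gene in each library (log axis), ordered by the male hypoxia mean, with male hypoxia, male normoxia, female hypoxia and female normoxia from left to right and a line joining the 3 libraries of a group. Sparc is highest in every group at 86.3 to 473 TPM, and Spp1 spans 0.0300 to 12.4 TPM.

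TPM gave larger male ratios than CPM for all 10 genes, and larger female ratios for all but Spp1, whose ratio of female hypoxia to female normoxia means was 1.93 in TPM and 3.29 in CPM. For Spp1 the ratio of male hypoxia to male normoxia means was 58.7 in TPM and 21.7 in CPM, for Postn 10.9 and 6.75, and for Thbs2 1.44 and 1.08. The TPM of Thbs2 were 2.45, 3.49 and 2.72 in male hypoxia, against 1.85, 2.21 and 1.94 in male normoxia, without overlap. Leaving out the TMM factors, an alternative added after the values were seen, shifted the median log2 fold change of all genes by 0.25 in males and 0.16 in females, and changes in CPM are stated relative to the TMM scale, on which the all-gene medians were 0.01 in males and -0.02 in females. Transcript length also entered. The deposited average effective length of Spp1 was 615, 438 and 806 bases in male hypoxia, against 1160 bases in each male normoxia library. In females it was 1160, 1160 and 620 bases in hypoxia, against 498, 1160 and 328 bases in normoxia, so short values occurred at both oxygen levels. GENCODE M21 lists 7 transcripts for Spp1, 9 for Postn, 17 for Fn1 and 2 for Thbs1.

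For Postn the effective length was 2110, 2064 and 2120 bases in male hypoxia, against 2601, 2282 and 2907 bases in male normoxia. In females it was 2538, 2252 and 2249 bases in hypoxia, against 2202, 2418 and 2900 bases in normoxia. Males did not overlap and females did. The difference averaged over sexes was -0.19 ± 0.08 in log2 length (unadjusted p = 0.0369, adjusted p = 0.784 by limma). Of the 7 members whose length varied none passed, against 0.021% of 9502 genes, of which 574 had an unadjusted p under 0.05. Thbs2, Cilp and Comp had a near constant length in all libraries.

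**Figure D4:**
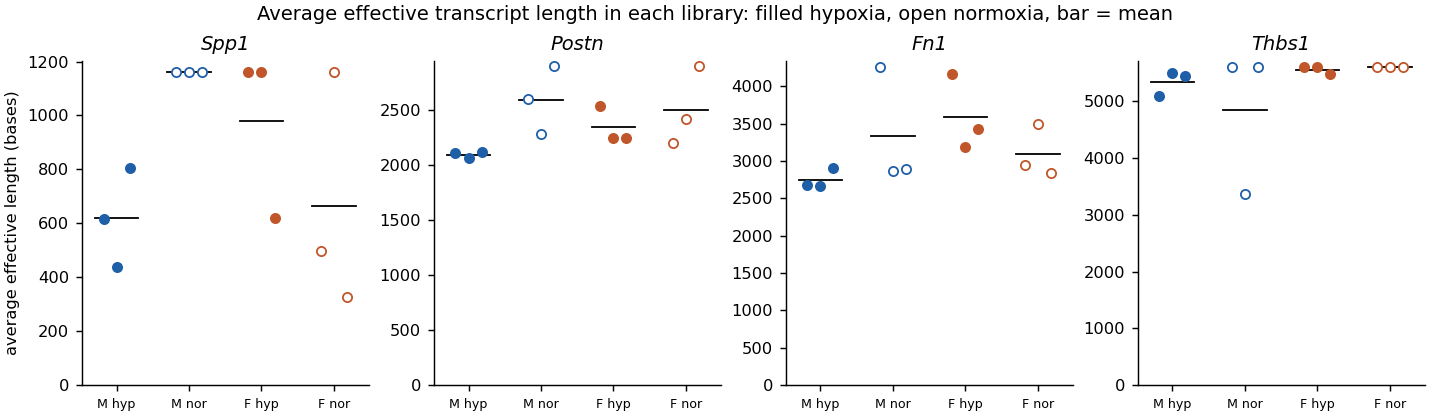
Average effective transcript length in bases (vertical axes from 0) of Spp1, Postn, Fn1 and Thbs1 in each library, male (M) in blue and female (F) in orange, hypoxia (hyp) filled and left of normoxia (nor), with a bar at each group mean. Spp1 lies at 1160 bases in all 3 male normoxia libraries and at 438 to 806 bases in male hypoxia, and Postn is shorter in male hypoxia than in male normoxia without passing the test.

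Genes around the 10 were described from 4 lists. Of 26 other matricellular and related secreted matrix genes 19 were tested. In the averaged comparison 11 of them rose, against 15% of all genes called higher, and none fell. Their median log2 fold change was 0.70. Fbln2, a fibulin that binds fibronectin, rose most clearly (1.42 ± 0.12, adjusted p = 5.8e-05). Thbs3, the remaining thrombospondin gene, rose by 0.97 ± 0.12 (adjusted p = 0.000509), Ecm1 by 1.16 ± 0.15 (adjusted p = 0.000628) and Fstl1, a secreted relative of Sparc, by 1.39 ± 0.20 (adjusted p = 0.00101). Without male hypoxia libraries 2 and 3 the count was 5.

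Of 18 receptors, all tested, 7 rose and 1 fell, against 15% of all genes called higher and 12.9% lower. The median was 0.17. Itgb3, the integrin subunit that with Itgav forms a receptor for osteopontin, periostin and fibronectin, rose by 1.93 ± 0.23 (adjusted p = 0.000474). Itga5, a subunit of the main fibronectin receptor, rose by 0.91 ± 0.21 (adjusted p = 0.00862). Lrp1, which takes up thrombospondins, rose by 0.58 ± 0.10 (adjusted p = 0.00280), and Stab1, a scavenger receptor that takes up Sparc, by 0.71 ± 0.12 (adjusted p = 0.00222). Cacna2d1, a calcium channel subunit that binds thrombospondins, fell by 0.40 on the log2 scale (adjusted p = 0.00990). Without male hypoxia libraries 2 and 3 the receptors called were 3.

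Of 12 enzymes that crosslink, cleave or phosphorylate matricellular proteins 7 rose and none fell, against 15% of all genes called higher. The median was 0.81. Lox, the collagen crosslinking lysyl oxidase, rose by 2.28 ± 0.25 (adjusted p = 0.000358) and Adamts12, a secreted protease, by 1.92 ± 0.27 (adjusted p = 0.000950). The membrane protease gene Mmp14 rose by 1.09 ± 0.15 (adjusted p = 0.000791), and Tgm2, which crosslinks fibronectin, by 0.48 ± 0.06 (adjusted p = 0.000682). Fam20c, the kinase that phosphorylates osteopontin, did not pass (0.11 ± 0.10, adjusted p = 0.448).

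Of 15 genes of TGF-beta, mechanical and serum response signalling 7 rose and none fell, against 15% of all genes called higher. The median was 0.20. Wwtr1, the coactivator TAZ, rose by 0.62 ± 0.08 (adjusted p = 0.000728), the receptor gene Tgfbr2 by 0.50 ± 0.09 (adjusted p = 0.00242), the coactivator gene Mrtfb by 0.39 ± 0.07 (adjusted p = 0.00374) and the ligand gene Tgfb3 by 0.92 ± 0.21 (adjusted p = 0.00899). Yap1 (0.10, adjusted p = 0.474) and Srf (-0.07, adjusted p = 0.771) did not pass. Without male hypoxia libraries 2 and 3 the count was 2. Over all genes tested 27.9% were called in either direction. Along with these genes, summed CPM of the 8 fibroblast markers was 1255 to 1765 in male hypoxia, against 824 to 868 in male normoxia. In females it was 825 to 1470 in hypoxia, against 706 to 1040 in normoxia. Of the 8 markers 5 rose in the averaged comparison, 6 in males and 0 in females. The shares of all genes called higher were 15%, 8.47% and 3.97%. The 5 were the collagen genes Col1a1, Col1a2 and Col3a1 (averaged log2 fold changes of 1.32, 1.15 and 1.34), with Pdgfra (0.29) and Tcf21 (0.45). Dcn (0.28), Lum (0.51) and Dpt (0.02) did not pass. Col3a1 had means of 405 CPM in male hypoxia and 128 in male normoxia, and Dcn had 584 and 418 CPM. In the averaged comparison 3 of 6 activated fibroblast markers, 5 of 6 endothelial markers and 4 of 6 smooth muscle and pericyte markers also rose. Summed endothelial CPM was 937 to 1190 in male hypoxia, against 636 to 755 in male normoxia, and 956 to 1244 in female hypoxia, against 732 to 827 in female normoxia. Summed smooth muscle and pericyte CPM was 791 to 1210 in male hypoxia, against 620 to 688 in male normoxia, and 732 to 1229 in female hypoxia, against 655 to 729 in female normoxia, with Kcnj8 at 0 in 2 libraries. The activated fibroblast sums overlapped between hypoxia and normoxia in each sex. They were 118 to 254 CPM in male hypoxia, against 67.5 to 122 CPM in male normoxia. In females they were 174 to 347 CPM in hypoxia, against 77.8 to 232 CPM in normoxia. Cthrc1 was at 0 in male normoxia libraries 2 and 3. The largest part of these sums was Acta2, with means of 123 CPM in male hypoxia, 65.9 in male normoxia, 180 in female hypoxia and 120 in female normoxia. In the averaged comparison Cthrc1, Meox1 and Ltbp2 rose, and Acta2, Fap and Ddah1 did not pass. Cthrc1 had means of 2.09 CPM in male hypoxia, 0.0629 in male normoxia, 0.427 in female hypoxia and 0.186 in female normoxia. It may have passed the count filter through male hypoxia alone, so its rise is not independent of the filter. The part of these cell types in the rise of the matricellular genes was not tested.

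**Figure D5:**
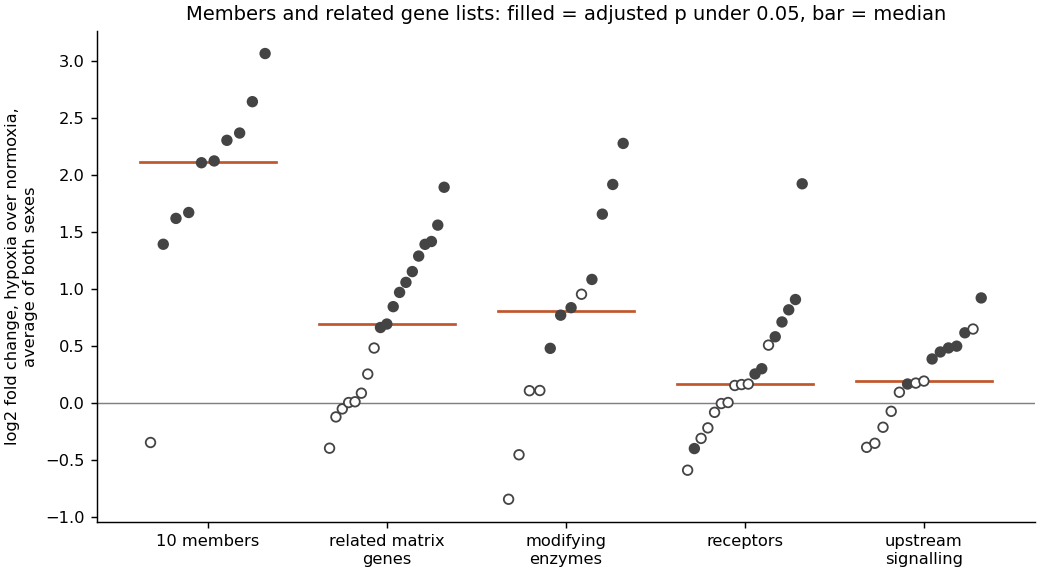
Log2 fold change of hypoxia over normoxia averaged over sexes (vertical axis) for each gene of the 10 matricellular genes and the 4 related lists, filled where the adjusted p was under 0.05, with an orange bar at the median of each list. The median is 2.12 for the 10 genes, 0.70 for related matrix genes, 0.81 for modifying enzymes, 0.17 for receptors and 0.20 for upstream signalling.

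For each member the genes with the most similar pattern over the 12 libraries were found by the root mean square difference in centred log2 CPM, as a description. Sparc was nearest to Fstl1 (0.13) and to Aspn and Bgn (both 0.15). Fn1 was nearest to Ube2c (0.18), Sparc (0.20) and Tpx2 (0.21), and Postn to Dio2 (0.35), Scn3b (0.39) and Ltbp2 (0.40). Cilp was nearest to Col8a1 (0.38), Mfap4 and Adamts12 (both 0.39), and Thbs4 to Itgbl1 and Tmem45a (both 0.29) and Sfrp1 (0.33). The next 3 had looser matches: Tnc to Adam8 (0.50), Mki67 (0.51) and Tpx2 (0.55), Thbs1 to Itgb3 and Ccn2 (both 0.54) and Lox (0.57), and Comp to Ccn5 (0.62), Thbs4 (0.73) and Cnn1 (0.75). Spp1 had no close match, its nearest genes being Serpina3n (0.89), Apod (0.94) and Ccn5 (0.99). Thbs2 was nearest to Exosc5 (0.16), Pmm1 (0.17) and Ypel3 (0.18), none of which passed the averaged test. Postn and Cilp were the second nearest pair of members (0.41), after Sparc with Fn1, and Spp1 with Thbs2 the farthest (1.88).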

How the data were processed

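Total RNA of frozen ventricle went into a directional mRNA kit, per the labels' protocols. The submitters' processing notes name FastQC, Salmon and the build GRCm39, and give no version, annotation release or strand setting. Per the file headers, the columns are estimated counts, TPM and average effective transcript lengths of 39210 genes, of which 99.3% had a symbol, and 0 columns belonged to no sample. In 98.1% of genes with a single transcript and a constant length, the deposited length equals the GENCODE M21 length less 250 bases.

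The deposited estimated counts were rounded to whole numbers. filterByExpr left 13960 genes. A model of the 4 group means was fitted to all 12 libraries with TMM factors in edgeR 4.0.16 (R 4.3.3, 8 residual degrees of freedom), with two-sided quasi-likelihood tests and Benjamini-Hochberg adjustment over all genes at 0.05. Standard errors come from the fold change and the F statistic. CPM are TMM-scaled. The deposited TPM served for levels across genes, and log2 lengths were tested with limma 3.58.1. The code was tested on simulated counts. Depth limits low genes, and precision is that of 3 libraries a group. The labels do not say whether replicate numbers pair libraries. Deviations from the group means over all genes tested correlated at -0.05 to 0.19 between same-numbered libraries, with 1 of 12 pairs over 0.1. That pair was male and female hypoxia library 1. With 3 libraries a group these values cannot exclude pairing.

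The 10 genes, the lists, the motifs and the tests were chosen with earlier results of these data known. Named were all 10 members, up to 4 genes of each list with the smallest p among those called, and the 3 nearest genes of each member among those whose log2 CPM averaged at least 1, leaving out predicted genes. Other list and marker genes were named after their values were seen. Alternatives were DESeq2 1.42.0, limma voom, other scaling factors and filters, length offsets, the replicate block, removal of mitochondrially encoded and haemoglobin genes, only the compared libraries and libraries left out.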

Additional observations from a re-analysis of the deposited data

How the results depend on the processing

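By edgeR's test the 9 members that rose in the averaged comparison kept their direction under every alternative, and 9 passed in each fit that left out 1 library. With limma voom 8 passed, and Comp did not (log2 2.12, adjusted p = 0.115). The stricter filter removed Spp1 before testing, which left 8. With male hypoxia libraries 2 and 3 left out Comp was at 0.81 (adjusted p = 0.249), and without female normoxia library 3 as well at 0.65 (adjusted p = 0.28), and in both fits 8 members passed. Thbs2 ranged from -0.45 to -0.14 when a library was left out. In females the members that rose were 6 by DESeq2, 5 without TMM factors, 0 with only the compared libraries and 0 to 6 with a library left out. In males they were 2 without male hypoxia libraries 2 and 3 and 3 without female normoxia library 3 as well. The genes called over all genes in females were 1648 by DESeq2, 393 with length offsets, 40 with only the compared libraries, 457 without male hypoxia libraries 2 and 3, and 55 to 2081 with a library left out. In males they were 1269 with length offsets, 3594 without TMM factors, 66 without male hypoxia libraries 2 and 3, 176 without female normoxia library 3 as well, and 877 to 3036 with a library left out. In the averaged comparison they were 1295 and 2329 with those sets of libraries left out. For the female effect minus the male effect they were 61 by DESeq2, 2 by limma voom, 6 with no filter, 7 and 6 with those sets left out, and 1 to 5 with a library left out, and no member passed in any of these fits. For females against males in hypoxia they were 181 by DESeq2, 12 with length offsets, 12 with only the compared libraries, 12 without all 3 named libraries, and 9 to 40 with a library left out. In normoxia they were 54 by DESeq2, 6 with only the compared libraries, 6 with the replicate block, and 5 to 10 with a library left out. Without those sets of libraries the list genes called were 5 and 7 of the related matrix genes and 2 and 4 of the signalling genes, and without male hypoxia libraries 2 and 3 they were 3 of the receptors, whose count with a library left out was 5 to 10. Ordering levels by CPM per kilobase of mean effective length kept 8 of 10 places in male hypoxia and 7 in female normoxia. The cause of these changes was not tested, and some of the fits also used fewer libraries. Whether replicate numbers pair the libraries is not stated in the labels. With the replicate block 9 members passed in the averaged comparison, 8 in males, where Comp did not (2.98, adjusted p = 0.0511), and 4 in females, where Thbs1 did (1.18, adjusted p = 0.0439). The low read counts of Spp1 outside male hypoxia limit the precision of its fold changes.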
